A study of Mus musculus with 2 samples.

Results

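The 30 genes described here encode the machinery of the endoplasmic reticulum (ER) that folds secreted and membrane proteins, together with the sensors that adjust it. They were taken by gene symbol, and each of the 30 matched 1 of the 32285 gene identifiers in the count matrices. They fall into 4 roles, namely 4 sensors and their transcription factor (Atf6, Ern1, Eif2ak3 and Xbp1), 16 chaperones and folding enzymes, 7 genes of ER-associated degradation and 3 of translocation into the ER. The symbols were chosen by function and not by their values, although earlier results of these data were known.

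The cells came from mouse embryos at E13.5 (mid-gestation), in which Isl1-Cre had switched on the R26R-eYFP reporter. Isl1-Cre acts in Isl1-expressing progenitors, among them the cardiopharyngeal mesoderm of the pharyngeal arches, and the reporter stays on in their descendants. The control library was Isl1-Cre;R26R-eYFP, and the mutant library was Isl1-Cre;R26R-eYFP;Pik3caH1047R, which adds an activated form of the catalytic subunit of phosphoinositide 3-kinase in the same cells. The labels name the tissue as pharyngeal arch, whereas the protocol describes tissue above the liver. Tissue of 3 eYFP-positive embryos was pooled for each genotype, sorted for eYFP and viability, and made into 1 droplet library by 5′ tag counting with unique molecular identifiers (UMIs).

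With 1 library per genotype there was no replicate of either group, so no test of the genotype was possible. All intervals are 95% intervals that cover counting error only, and genotype, embryo, litter, sex and library preparation cannot be told apart except where a split by sex genes is given. After removal of cells with 2000 genes or fewer, 9000 or more, or at least 10% mitochondrial UMIs, 2783 control and 3489 mutant cells remained, with medians of 20412 and 16839 UMIs. Of the control cells 95.5% carried the female pattern of Xist and Y-linked transcripts (called female-like below), whereas the mutant library held 33.6% female-like and 53.3% male-like cells. The libraries shared 12 cell barcodes among the kept cells. Cells were clustered on genes that exclude the 30, and 9 groups with at least 50 cells in each library were compared, 7 named from marker genes and 2 left as cluster 6 (led by Wnt2, Tbx4 and Tcf21) and cluster 7 (hemoglobin together with macrophage genes). The endothelial cell (EC)-like class was raised for 15 of its 15 markers and held 160 control and 751 mutant cells.

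When unfolded proteins accumulate in the ER, the chaperone Hspa5 (BiP) leaves the sensors Ern1 (IRE1), Eif2ak3 (PERK) and Atf6. Ern1 then splices the Xbp1 transcript, Atf6 is cleaved to a transcription factor, and Eif2ak3 slows translation while favouring Atf4. Xbp1 and Atf6 raise chaperones and degradation genes through promoter elements, so that transcript levels of those genes are a common readout of the response. The splicing of Xbp1 and the cleavage of Atf6 are not visible in UMI counts.

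The promoters of several members held the ER stress element (ERSE), a CCAAT box spaced from a CCACG sequence. Promoters from 250 bases before to 50 bases after the start site were given by RefSeq (GRCm38.p6) for 25 of the 30 genes. Searched on both strands, the ERSE (CCAAT, then 9 bases of any kind, then CCACG) was found in 9 of these 25 (36.0%), against 0.137% of the 27025 genes with a promoter in the table. The 9 were 7 chaperones and folding enzymes (Calr, Canx, Creld2, Dnajc3, Hsp90b1, Hspa5 and Pdia6) and 2 degradation genes (Derl3 and Syvn1), with none among the sensors or the translocation genes. The shorter ERSE-II (ATTGG, 1 base of any kind, then CCACG) was found in Dnajb11 and Herpud1, 8.0% of the members against 0.0444% of genes. The core TGATGNAA of the composite site bound by Atf4 was found in Herpud1 alone (4.0% of members, 4.51% of genes), and the core TGACGTGG of the Xbp1 element was found in none (0.714% of genes). An ERSE and an ERSE-II can share their CCACG, but no member held both. A match is a description of letters, and binding was not measured. The genes were picked for their role in this response, so the share is no independent result.

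The promoters of 5 members that the results below turn on are shown in the direction of the gene, with the matches to ERSE, ERSE-II or the Atf4 core in capitals. Those of Hspa5 (chr2:34771840-34772139, plus strand), Creld2 (chr15:88819396-88819695, plus strand) and Derl3 (chr10:75893148-75893447, plus strand) hold 1 ERSE each. That of Hsp90b1 (chr10:86705395-86705694, minus strand) holds 2, at -212 and -107 from the start site. That of Herpud1 (chr8:94386179-94386478, plus strand) holds the Atf4 core at -112 and the ERSE-II at -52.
Hspa5: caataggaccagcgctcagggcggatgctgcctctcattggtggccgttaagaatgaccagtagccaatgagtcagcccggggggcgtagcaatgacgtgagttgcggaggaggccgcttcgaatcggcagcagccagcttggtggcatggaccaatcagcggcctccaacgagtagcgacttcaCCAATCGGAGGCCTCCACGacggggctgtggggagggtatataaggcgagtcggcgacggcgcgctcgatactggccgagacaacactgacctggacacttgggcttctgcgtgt 
Hsp90b1: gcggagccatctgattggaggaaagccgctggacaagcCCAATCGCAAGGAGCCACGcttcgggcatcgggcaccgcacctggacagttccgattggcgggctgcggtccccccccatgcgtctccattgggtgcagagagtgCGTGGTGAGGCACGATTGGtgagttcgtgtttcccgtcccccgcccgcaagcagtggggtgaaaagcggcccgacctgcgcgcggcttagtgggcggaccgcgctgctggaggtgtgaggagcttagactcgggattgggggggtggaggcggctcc 
Creld2: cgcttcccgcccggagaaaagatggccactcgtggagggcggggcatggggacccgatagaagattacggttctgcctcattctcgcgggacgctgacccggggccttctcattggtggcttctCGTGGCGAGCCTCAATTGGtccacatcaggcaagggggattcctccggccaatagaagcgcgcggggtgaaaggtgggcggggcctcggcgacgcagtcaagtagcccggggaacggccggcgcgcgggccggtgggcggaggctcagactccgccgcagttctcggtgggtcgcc 
Derl3: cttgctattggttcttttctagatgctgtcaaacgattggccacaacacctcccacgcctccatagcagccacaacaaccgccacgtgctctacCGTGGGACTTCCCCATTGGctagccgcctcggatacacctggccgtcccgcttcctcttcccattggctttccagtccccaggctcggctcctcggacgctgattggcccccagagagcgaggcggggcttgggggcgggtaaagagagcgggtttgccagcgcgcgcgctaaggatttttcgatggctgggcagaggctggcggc 
Herpud1: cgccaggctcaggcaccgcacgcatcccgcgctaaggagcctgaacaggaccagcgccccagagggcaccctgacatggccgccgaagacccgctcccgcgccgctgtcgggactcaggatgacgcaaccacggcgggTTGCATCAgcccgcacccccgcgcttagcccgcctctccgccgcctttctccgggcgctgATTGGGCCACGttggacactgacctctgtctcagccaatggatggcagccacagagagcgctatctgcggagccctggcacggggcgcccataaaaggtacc

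In the control library the summed level of the 30 genes differed widely between cell classes. Levels are given as UMIs per 1000000 UMIs of the class (CPM), and because the 5′ assay counts 1 tag per transcript they do not scale with gene length. The sum was lowest in cardiomyocyte-like cells at 1814 CPM, followed by neuron-like cells at 3449 and branchial muscle-like cells at 4167. EC-like and epithelium-like cells followed at 5779 (5699 to 5859) and 5798 (5724 to 5873), which overlapped, and cluster 6 and cluster 7 stood at 6378 and 6483. Mesenchyme-like cells held 6999 CPM and mesothelium-like cells 9026, the highest of the 9 groups.

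The roles did not share 1 order of classes. Of the 16 chaperones and folding enzymes 10 were highest in control mesothelium-like cells, as were all 3 translocation genes, with Hsp90b1 (the ER form of Hsp90) at 1751 CPM there against 942 in EC-like cells. For Dnajc3, Manf, Creld2 and the 3 translocation genes the interval overlapped that of the next class. By contrast, 3 of the 4 sensor genes and 4 of the 7 degradation genes were highest in cluster 7. For Xbp1, Derl2 and Herpud1 among these the interval overlapped that of the next class. Atf6 reached 111 CPM in cluster 7 and 46.1 CPM in the next class, and Ern1 43.6 against 22.6 CPM, with intervals that did not overlap in either case. Cardiomyocyte-like cells were lowest, or for Derl3 tied with EC-like cells at 0 UMIs, for 29 of the 30 genes, the exception being Herpud1.

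In the mutant library EC-like cells held the highest sum of the 9 groups, 9640.1 CPM (9591 to 9689.9), and 16 of the 30 genes had their highest level there, against 1 (Pdia5) in the control library. For Xbp1, Calr, Canx and Derl2, and for Pdia5 in the control library, the interval overlapped that of the next class. The sum was thus 1.67 times that of control EC-like cells, a log2 ratio of 0.74. It was higher in the mutant branchial muscle-like (6045) and neuron-like cells (4658) too, close to the control value in mesenchyme-like cells (7152), and lower in mesothelium-like cells (7543). A class of hepatoblast-like cells held 11286 CPM, and since it had 47 mutant and 0 of 2783 control cells (at most 0.132%) it could not be compared.

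**Figure D1:**
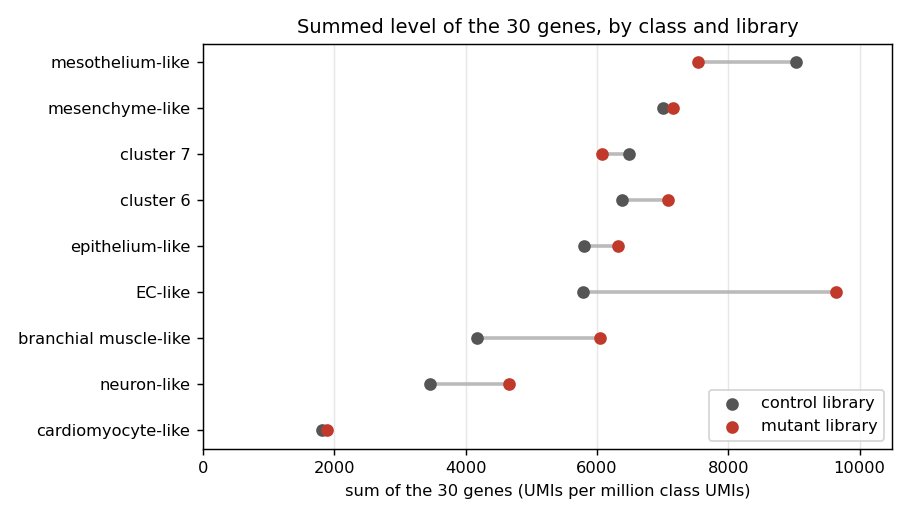
Summed level of the 30 genes in CPM, with a grey point for the control and a red point for the mutant library in each of the 9 groups. The EC-like row spans 5779 to 9640.1, the widest gap, and in the mesothelium-like row the mutant point lies on the lower side.

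In EC-like cells 15 of the 30 genes were at least 1.5-fold higher in the mutant library and none was at least 1.5-fold lower. Of the 14445 genes that reached 20 UMIs over both libraries there, 14.4% were that much higher and 14.3% that much lower. The median log2 ratio of mutant over control CPM was 0.59 for the members and -0.06 for all genes. All 30 ratios over the whole class were above 0 (that of Derl3 against a floor of 3 UMIs), and the intervals of 4 of them (Ern1, Eif2ak3, Derl1 and Sec61a1) reached 0. Within female-like cells Xbp1 (-0.03), Derl1 (-0.02) and Syvn1 (-0.02) lay below 0, and with cells thinned to 5000 UMIs Ern1 (-0.17) and Sec61a1 (-0.22) did. Where only genes of at least 100 CPM in either library were considered, 9 of 18 members were past 1.5-fold higher, against 7.65% of such genes. Creld2 and Sdf2l1, among these 9, reached that level in the mutant library only, so the count is no independent support.

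The chaperones and folding enzymes held most of these, with 11 of 16 past 1.5-fold and a median log2 ratio of 0.75. Hspa5, the ER Hsp70 (gene at chr2:34771970-34777547), was at 679 CPM in the control and 1258 CPM in the mutant library, a log2 ratio of 0.89 (0.83 to 0.95). Hsp90b1, the ER Hsp90 (chr10:86690209-86705509), went from 942 to 2040.1 CPM, 1.12 (1.06 to 1.17). These are the members with the most UMIs, and their intervals were the narrowest. Creld2, a folding factor with disulfide isomerase activity, showed the largest ratio of the chaperones, from 51.0 to 125 CPM, 1.29 (1.07 to 1.52).

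Among the cofactors Sdf2l1 and Manf showed ratios near a doubling, and Hyou1 and the Hsp40 partners of Hspa5 smaller ones. Sdf2l1, which works with ER Hsp40 proteins, went from 54.2 to 117 CPM, 1.11 (0.89 to 1.33), and Manf, a secreted ER cofactor of Hspa5, from 249 to 524 CPM, 1.07 (0.97 to 1.17). Hyou1, the exchange factor of Hspa5, went from 49.9 to 86.9 CPM, 0.80 (0.57 to 1.04). Of the Hsp40 partners of Hspa5, Dnajb9 was 0.76 (0.51 to 1.01) higher, and Dnajb11 and Dnajc3 stayed under 1.5-fold at 0.51 (from 94.0 to 134 CPM) and 0.46 (from 118 to 162 CPM).

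The protein disulfide isomerases differed among themselves. Pdia4 went from 142 to 287 CPM, 1.01 (0.88 to 1.15), whereas Pdia3, the isomerase that works with the lectin chaperones, went from 638 to 898 CPM, 0.49 (0.43 to 0.56). P4hb (471 and 787 CPM) and Pdia6 (421 and 662 CPM) lay between, at 0.74 and 0.65, and Pdia5 (78.6 and 116 CPM) at 0.56 just missed 1.5-fold. The lectin chaperones also parted, with soluble Calr (308 and 519.8 CPM) at 0.75 (0.66 to 0.85) and membrane-bound Canx (348 and 459 CPM) at 0.40 (0.31 to 0.49), and these intervals did not overlap.

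None of the sensors or translocation genes was past 1.5-fold. Atf6 went from 34.7 to 42.3 CPM, Ern1 from 18.9 to 24.6, Eif2ak3 from 25.5 to 31.2 and Xbp1 from 115 to 133 CPM, with log2 ratios of 0.29, 0.38, 0.29 and 0.21. The summed level of the 4 differed by 0.25 (0.13 to 0.37), against 0.82 (0.79 to 0.84) for the chaperones. Sec61a1, the pore of the translocon, held 152 and 156 CPM, a ratio of 0.04 (-0.09 to 0.18). Sec61b, a small subunit of the pore (439 and 559.8 CPM), and Ssr1, a subunit of the associated TRAP complex (100.3 and 127 CPM), stood at 0.35 and 0.34.

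Degradation genes were mixed, with 4 of 7 past 1.5-fold. Herpud1, a membrane organiser of the degradation complex, went from 28.1 to 68.0 CPM, 1.28 (0.98 to 1.59). Sel1l, the partner of the ubiquitin ligase Syvn1, and Edem1, which takes glycoproteins out of the folding cycle, stood at 0.63 (39.3 and 60.9 CPM) and 0.61 (31.0 and 47.3 CPM). Syvn1 itself was at 0.49 (0.15 to 0.86), Derl2 at 0.40 and Derl1 at 0.17 (-0.06 to 0.40). Within female-like cells Herpud1 (1.13) was past 1.5-fold, while Edem1 was at 0.22 (-0.14 to 0.59) and Sel1l at 0.13 (-0.19 to 0.44). Derl3, a derlin typical of secretory cells, had 0 UMIs of 3488034 in the control and 104 of 15023998 in the mutant library. The mutant level was 8.05 times that of a floor of 3 UMIs, which is not a counting bound. Its mutant UMIs lay in 47 of 751 cells (6.26%). Within female-like cells Derl3 had 0 and 6 UMIs, and the lower bound of its log2 ratio was -0.44. Several members overlap other genes, among them Hsp90b1, Pdia3, Pdia6, Derl2 and Syvn1 on the opposite strand and Manf with Rbm15b on its own strand, and how reads of such overlaps were split is not given in the sources used here.

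In EC-like cells the ratios were also read by promoter element. The 10 members with an ERSE or ERSE-II had a median log2 ratio of 0.70 with 6 past 1.5-fold, and the 14 with a promoter in the table and no match had 0.53 with 6 past it. Their ratios ranged from 0.40 (Canx) to 1.29 and from 0.21 to 1.11, with Derl3 left out in this class. The members with a match had the higher median in 5 of the 9 groups, among them branchial muscle-like (0.59 and 0.43) and neuron-like cells (0.48 and 0.22), and the lower one in the other 4, among them epithelium-like (0.08 and 0.12) and mesothelium-like cells (-0.32 and -0.09).

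**Figure D2:**
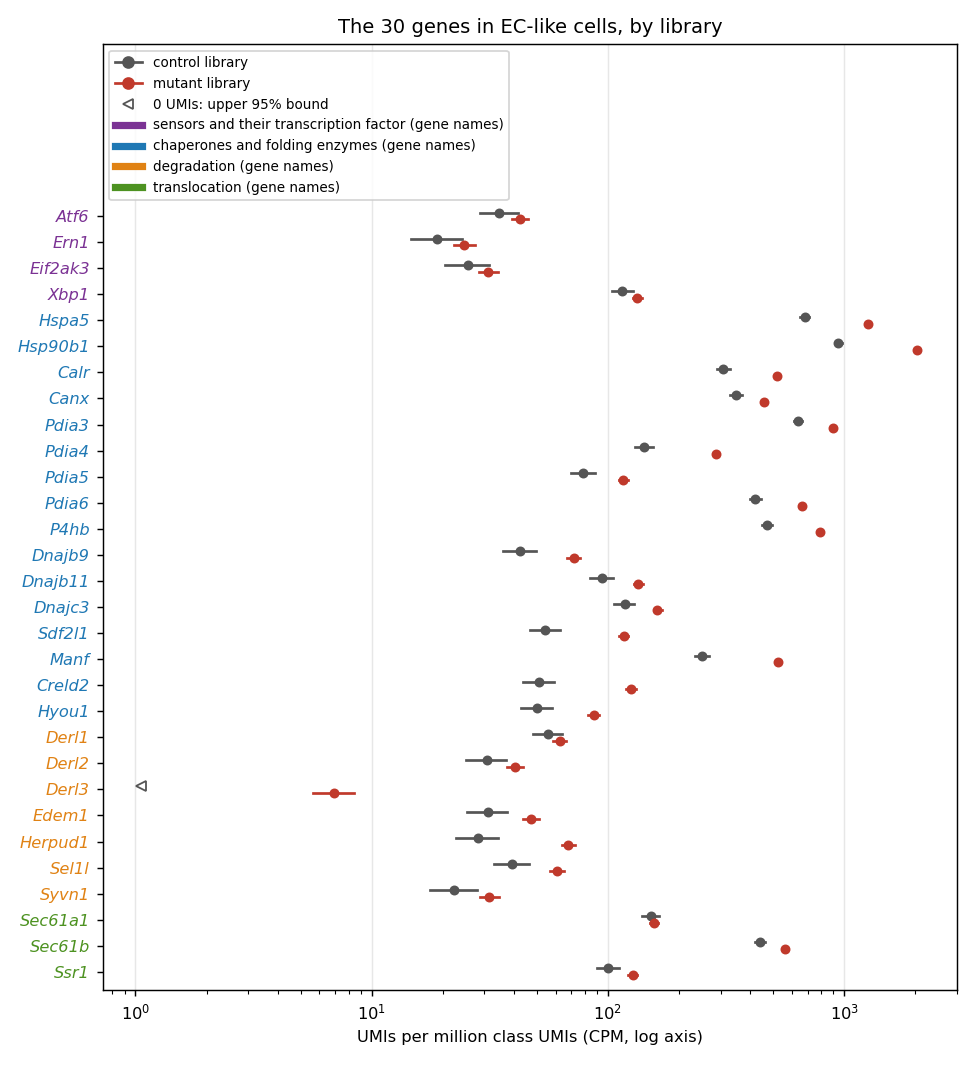
Level of each of the 30 genes in EC-like cells in CPM on a log axis, with 95% counting intervals, grey for the control and red for the mutant library, gene names coloured by role. The red points of Hspa5 (1258) and Hsp90b1 (2040.1) lie clear of the grey ones (679 and 942), those of Sec61a1 (156 and 152) overlap, and the open triangle of Derl3 marks the upper bound of a count of 0.

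The ratio was not the same in all EC-like cells. At a finer resolution the class split into a cluster led by Fabp4, Aplnr and Emcn (107 control and 517 mutant cells), a cluster led by Gja4, Fbln5 and Eln, with Tbx20 and Gja5 also among its leading genes (33 and 149 cells), and a cluster led by Tll1, Cyyr1 and Itga2, with Flt4 and Flt1 also among them (21 and 90 cells). The Gja4/Gja5 cluster was raised for 14 of 15 EC markers and for 6 of 10 mural markers, and the Flt4 cluster was the shallowest, with a median of 8411 UMIs against 19875 and 16532 UMIs. Members past 1.5-fold higher were 16 of 30 in the first (background 15.8%), 4 of 29 in the Gja4/Gja5 cluster (14.2%) and 16 of 29 in the Flt4 cluster (18.9%). The median log2 ratios were 0.63, 0.32 and 0.81.

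Hspa5 was lowest in the Gja4/Gja5 cluster as well. Its log2 ratio was 1.02 (0.95 to 1.10) in the Fabp4/Aplnr cluster, from 639 to 1298 CPM, and 0.95 (0.74 to 1.16) in the Flt4 cluster. In the Gja4/Gja5 cluster it was 0.32 (0.18 to 0.46), from 807 to 1009 CPM, with an interval apart from the other two. Herpud1 was at 1.55 (1.20 to 1.93) in the first and at -0.19 (-0.86 to 0.54) in the Gja4/Gja5 cluster, where it rested on 23 control UMIs.

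Between single EC-like cells the levels were spread by a long upper tail. With each cell thinned to 5000 UMIs, the 30 genes summed to a median of 28.0 UMIs in 157 control cells and 40.0 in 716 mutant cells, and the 95th percentiles were 51.2 and 102. Of the mutant cells 29.6% (26.3% to 33.1%) lay above the 95th percentile of the control cells. The corresponding share was 27.5% in neuron-like cells, 17.3% in branchial muscle-like cells and 9.18% in mesenchyme-like cells, and 1.49% in mesothelium-like cells.

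The abundant chaperones varied together from cell to cell to unlike degrees, and more weakly in the control library. In the thinned EC-like cells Spearman's rho of Hspa5 with the sum of the other members was 0.33 in the control and 0.60 in the mutant library, and that of Hsp90b1 0.47 and 0.67. Lower values were found for P4hb (0.15 and 0.49), Calr (0.17 and 0.42), Manf (0.20 and 0.52) and Canx (0.21 and 0.33). For Sec61b it was 0.04 and 0.09. These are descriptions over 157 and 716 cells of 1 library each, and a higher mean count alone raises such a value.

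Part of the ratio of summed UMIs moved with the sex pattern of the cells. When 250 female-like mutant EC-like cells were set against 144 female-like control cells, 9 of 29 members were past 1.5-fold higher. The median log2 ratio was 0.41, against -0.09 for all genes. For the 412 male-like mutant cells against the same control cells it was 20 of 30. The median there was 0.75, against -0.08 for all genes. For the whole class the shares of all genes in these subsets are not given here. Within the Fabp4/Aplnr cluster it was 10 of 29 (10.9% of genes) for female-like and 21 of 30 (14.6%) for male-like mutant cells. The Gja4/Gja5 cluster had 4 of 29 (12.9%) and 3 of 29 (14.6%), and the Flt4 cluster 12 of 26 (18.0%) and 18 of 29 (19.9%). Hspa5 stood at 689.7 CPM in female-like control, 1092 in female-like mutant and 1414 in male-like mutant cells. Hsp90b1 gave 942, 1679 and 2356 CPM in the same order. Both were thus higher in the mutant library within female-like cells, with ratios of 0.66 (0.59 to 0.73) and 0.83 (0.77 to 0.89).

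Among the members Derl3, Sdf2l1 and Creld2 had the largest differences between the sex patterns. Derl3 had 6 UMIs in female-like and 96 UMIs in male-like mutant EC-like cells, 1.17 and 11.4 CPM. Sdf2l1 was at 54.4 CPM in female-like control, 75.8 in female-like mutant and 143 in male-like mutant cells, and Creld2 at 51.9, 88.4 and 152. Herpud1 differed little, at 63.9 and 71.5 CPM in the female-like and male-like mutant cells against 29.2 in the control. With 3 embryos in a pool, sex pattern and embryo cannot be told apart.

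**Figure D3:**
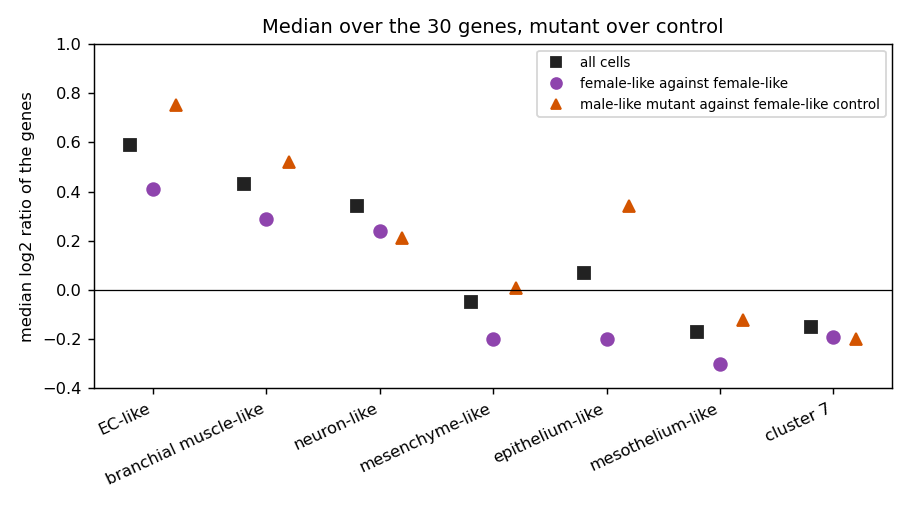
Median log2 ratio over the 30 genes, mutant over control, in 7 groups, with black squares for all cells, purple circles for female-like cells of both libraries and orange triangles for male-like mutant cells against female-like control cells. The circles of EC-like, branchial muscle-like and neuron-like cells lie above 0 (0.41, 0.29 and 0.24), and in epithelium-like cells the circle (-0.20) and the triangle (0.34) lie on opposite sides of 0.

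Branchial muscle-like cells (892 control and 841 mutant) were the second class in which the genes were higher. Here 12 of 30 members were past 1.5-fold higher and none lower, with 16.6% of 15716 genes that much higher and 10.1% lower, and the median log2 ratio was 0.43 against 0.02 for all genes. Herpud1 went from 22.0 to 59.6 CPM, 1.44 (1.28 to 1.59), and Sdf2l1 from 30.0 to 75.1 CPM, 1.32 (1.19 to 1.46). Hspa5 went from 550.3 to 829 CPM, 0.59 (0.56 to 0.63). Atf6 and Ssr1 had the lowest ratios, -0.41 (-0.55 to -0.27) and -0.02, so that the sensors parted, with Eif2ak3 at 0.87 (0.58 to 1.15). Among female-like cells alone 5 of 30 were past 1.5-fold and the median was 0.29, against -0.02 for all genes. Among G1 cells (281 and 202) 26 were past it and the median was 1.08. The shares of all genes past 1.5-fold in these subsets, and the all-gene median of the G1 cells, are not given here.

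Derl3 had 18 UMIs in control and 160 UMIs in mutant branchial muscle-like cells, a log2 ratio of 3.42 (2.72 to 4.21). By sex pattern it was at 0.734 CPM in female-like control and 0.837 CPM in female-like mutant cells, against 13.7 CPM in male-like mutant cells. The ratio within female-like cells was 0.19 (-1.44 to 1.60), and 146 of the 160 mutant UMIs lay in male-like cells.

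The clusters of the muscle class differed in their ratios. At the finer resolution the cluster led by Myh3, Mylpf, Mymk and Myog, genes of differentiating muscle, held 286 control and 204 mutant cells. In it 22 of 30 members were past 1.5-fold higher (background 16.4%), with a median log2 ratio of 1.07 against 0.00 for all genes. In the clusters led by Msc and Pitx3 and by Msc and histone genes the counts were 6 and 3 of 30 (14.5% and 12.3%), both with a median of 0.29, with 1 member, Atf6, that much lower in the latter (8.06% and 9.99% of genes were lower). The Pax7/Fap cluster had 12 of 29 (16.7%) and a median of 0.52.

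In the Myh3/Mymk cluster the ratios exceeded those in EC-like cells for many genes. Sdf2l1 went from 11.6 to 97.3 CPM, 3.07 (2.72 to 3.44), Creld2 from 22.4 to 122 CPM, 2.44 (2.18 to 2.71), and Pdia4 from 50.4 to 228 CPM, 2.18 (2.00 to 2.36). Herpud1 (2.08) and Manf (2.02) were more than 4 times as high. Hspa5 went from 394 to 991 CPM, 1.33 (1.26 to 1.40). Derl3 had 1 UMI in the control and 110 UMIs in the mutant library (0.152 and 22.0 CPM), which gives 7.18 on the log2 scale (4.67 to 12.49), a span set by the single control UMI.

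The sensors parted in this cluster, and Ssr1 and Sec61a1 lay below its median log2 ratio of 1.07. Atf6 was at -0.35 (-0.54 to -0.17) and Ern1 at 0.12, while Eif2ak3 was at 1.52 (0.85 to 2.22) on 28 control UMIs. Ssr1 and Sec61a1 were at 0.10 and 0.36. The cells of the 2 libraries also differed in muscle genes within the cluster, with Myog, a factor of early differentiation, at 3568 and 2396 CPM and Myh3, embryonic myosin, at 658 and 1067 CPM. The part of this in the members' ratios was not tested. Among female-like cells the cluster had 13 of 29 members past 1.5-fold (14.9% of genes) and a median of 0.57, and for male-like mutant cells 24 of 30 (15.6%) and 1.15.

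**Figure D4:**
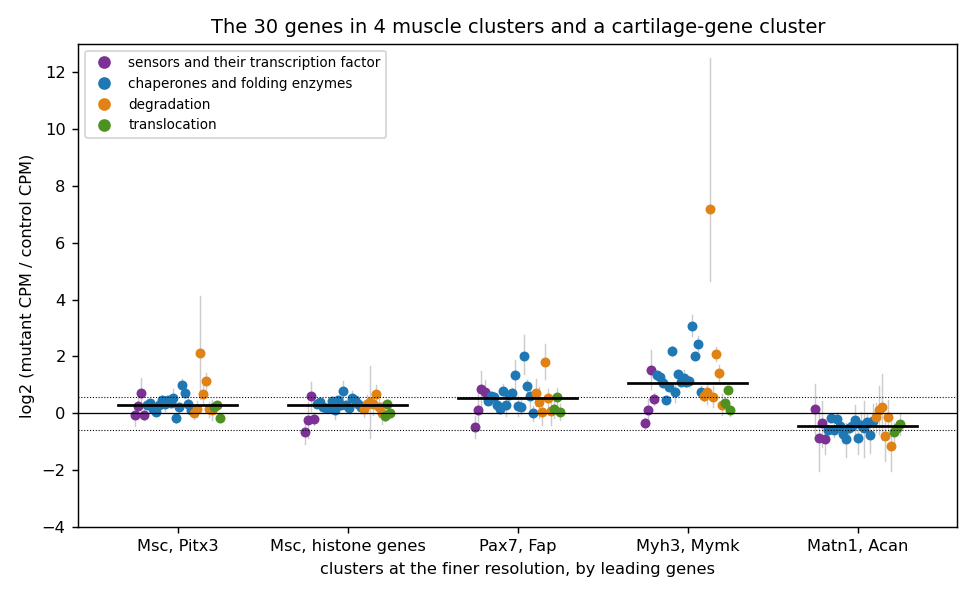
Log2 ratio of mutant over control CPM of each gene with at least 20 UMIs and at least 1 UMI in each library, in 4 muscle clusters and a cartilage-gene cluster at the finer resolution, coloured by role, with 95% counting intervals in grey, medians as black bars and 1.5-fold as dotted lines. The Myh3/Mymk cluster has the highest bar (1.07) and Derl3 (7.18) as its uppermost point, and the Matn1/Acan cluster has its bar below 0 (-0.46).

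In neuron-like cells (191 and 471) 5 chaperones and folding enzymes and the sensor Eif2ak3 were past 1.5-fold higher. Of the 29 measurable members 6 were thus higher and 1, Pdia5, lower, against 8.25% and 18.3% of genes, and the median log2 ratio was 0.34 against -0.08. Scaling by the trimmed mean of M values moved this count to 11. Manf went from 181 to 309 CPM, 0.77 (0.65 to 0.89), Hspa5 from 411 to 654 CPM, 0.67 (0.59 to 0.75), and Calr from 252 to 382 CPM, 0.60. The degradation genes had a median of 0.07 here, and Herpud1 was at 0.50 (0.20 to 0.80).

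The highest and lowest members in neuron-like cells differed between its clusters. Eif2ak3 went from 17.4 to 35.3 CPM, 1.02 (0.63 to 1.42), and Pdia5 from 46.9 to 20.8 CPM, -1.17 (-1.48 to -0.86), with Atf6 next lowest at -0.47. In the cluster led by Neurod1 and Ppp1r17, which also had Pou4f1 and Tlx3, factors of sensory neurons, among its leading genes, Eif2ak3 was at 1.32 (0.67 to 2.02) and Pdia5 at -1.54 (-2.06 to -1.02). In the larger neuron-like cluster they were at 0.43 (-0.12 to 1.02) and 0.52 (-0.18 to 1.29), the latter on 21 control UMIs. The lower Pdia5 was thus found in the Neurod1 cluster, and in the larger one its interval reached 0.

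Mesenchyme-like cells (597 and 540) showed almost no common difference. Past 1.5-fold were 2 of 30 members, both higher (11.5% of genes were that much higher and 14.5% lower), and the median log2 ratio was -0.05. Hspa5 was at 953 CPM in the control and 924 CPM in the mutant library, and Pdia6 at 528 and 511 CPM. The 2 genes past 1.5-fold were Sdf2l1, at 0.86 (0.64 to 1.09), and Derl3, at 2.83 (1.79 to 4.04) on 9 and 51 UMIs. Hsp90b1 (0.38) and Manf (0.40) were higher by less. Within female-like cells Hsp90b1 was at 0.07 (0.01 to 0.13), Manf at 0.06 (-0.06 to 0.19) and Sdf2l1 at 0.55 (0.21 to 0.88). For male-like mutant cells against female-like control cells they were at 0.53, 0.56 and 1.03. At the low end stood Sec61a1 at -0.58 (-0.69 to -0.47), Syvn1 at -0.57 and Xbp1 at -0.52 (-0.65 to -0.39).

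The mesenchyme-like clusters of the finer resolution differed, and in cells with cartilage genes the members were lower. In the cluster led by Matn1, Acan and Col2a1, the matrix genes of cartilage (53 control and 57 mutant cells), 10 of 29 members were at least 1.5-fold lower in the mutant library and none higher, against 12.3% and 18.1% of genes. The median log2 ratio was -0.46 against 0.08 for all genes. Hspa5 went from 1029 to 689.6 CPM, -0.58 (-0.73 to -0.43), and Pdia4 from 254 to 152 CPM, -0.74 (-1.06 to -0.43). Xbp1 went from 111 to 58.5 CPM, -0.92 (-1.44 to -0.42), and Dnajb11 from 94.2 to 51.2 CPM, -0.88. Members lower by 1.5-fold numbered 12 of 29 for female-like (21.2% of genes) and 9 of 29 for male-like mutant cells (14.7%), against the same control cells. A mesenchyme-like cluster led by Cdh18, Tafa1 and Pappa (145 and 100 cells) had a median of 0.31 against 0.05 for all genes. Of its members 4 of 29 were past 1.5-fold higher (15.9% of genes). The largest mesenchyme-like cluster (398 and 378 cells) had a median of -0.04.

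Epithelium-like cells (211 and 302) had 1 of 30 members past 1.5-fold higher (11.2% of genes, with 12.2% lower) and a median of 0.07. That gene was Derl3, from 5.41 to 12.4 CPM, 1.20 (0.49 to 1.97), followed by Edem1 at 0.54, while Sec61a1 (-0.24) and Hyou1 (-0.23) were lowest. The sex patterns differed here as well, with 0 of 30 past 1.5-fold and a median of -0.20 for female-like cells and 7 of 30 and 0.34 for male-like mutant cells. The medians over all genes were -0.10 and -0.04 in these comparisons, and their shares of genes past 1.5-fold are not given here. The class included a small cluster led by the pituitary hormone genes Cga and Tshb (35 and 30 cells), in which 8 of 29 were higher (17.8%) with a median of 0.32. Its 5 female-like mutant cells against 33 female-like control cells had 3 of 26 higher (16.2%) and 7 lower (28.2%), with a median of -0.23. Its 23 male-like mutant cells against the same control cells had 10 of 28 higher (19.8%) and 0 lower (17.7%), with a median of 0.44.

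In mesothelium-like cells (70 and 69), which had the highest control levels, 3 of 29 members were lower, 1 was higher, and 14.3% and 22.1% of genes were so. The median log2 ratio was -0.17. Calr went from 721 to 459 CPM, -0.65 (-0.79 to -0.51), and Sdf2l1 from 77.3 to 46.9 CPM, -0.72 (-1.18 to -0.28), while Ern1 (-1.03, -2.48 to 0.21) rested on 26 and 7 UMIs. Sel1l was higher, at 0.94 (0.46 to 1.43), and Atf6 was at 0.48. The median depth differed between the libraries in this class, at 28114 UMIs per control cell and 14430 UMIs per mutant cell. Against 68 female-like control cells, 22 female-like mutant cells had 8 of 29 members lower and 2 higher, with a median of -0.30 (all genes 0.02). For 39 male-like mutant cells it was 1 lower and 1 higher, with -0.12 (0.03). Members lower numbered 6 when scaled by the trimmed mean of M values and 0 where cells were classed by marker counts. Shares of all genes past 1.5-fold are not given for these comparisons.

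Cardiomyocyte-like cells (54 and 184) had 25 measurable members, of which 5 were lower and 1 higher (21.5% and 13.6% of genes), with a median of -0.09. Dnajb9 (-1.04, -1.94 to -0.10) and Sel1l (-1.0, -1.92 to -0.03) were lowest on 17 and 16 control UMIs. Sdf2l1 was highest at 1.28 (0.49 to 2.20) on 14 control UMIs, and Sec61b followed at 0.53. At these depths most member ratios in this class had intervals wider than 1 on the log2 scale.

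The unnamed clusters showed no shared increase. In cluster 6 (343 and 59 cells, of which 52 mutant cells were male-like) 0 of 29 members were past 1.5-fold in either direction (9.51% of genes were higher and 14.9% lower), with Manf (0.41) and Sec61b (0.36) highest and Atf6 (-0.57) and Xbp1 (-0.53) lowest. In cluster 7 (174 and 176 cells) 1 of 29 was higher and 3 were lower (11.4% and 19.4% of genes), with a median of -0.15. Xbp1 went from 139.8 to 58.8 CPM, -1.25 (-1.45 to -1.05), and Atf6 from 111 to 68.2 CPM, -0.70 (-0.90 to -0.50). Pdia5 (0.82) and Ssr1 (0.24) were the highest.

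Cluster 7 differed in make-up between libraries. At the finer resolution it parted into hemoglobin-led cells (77 control, 134 mutant) and cells led by C1qb and C1qc, macrophage genes (97 control, 42 mutant). Xbp1 was lower in each, at -1.05 (-1.37 to -0.73) in the first and -0.66 (-0.94 to -0.39) in the second, and Atf6 at -0.40 and -0.79.

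**Figure D5:**
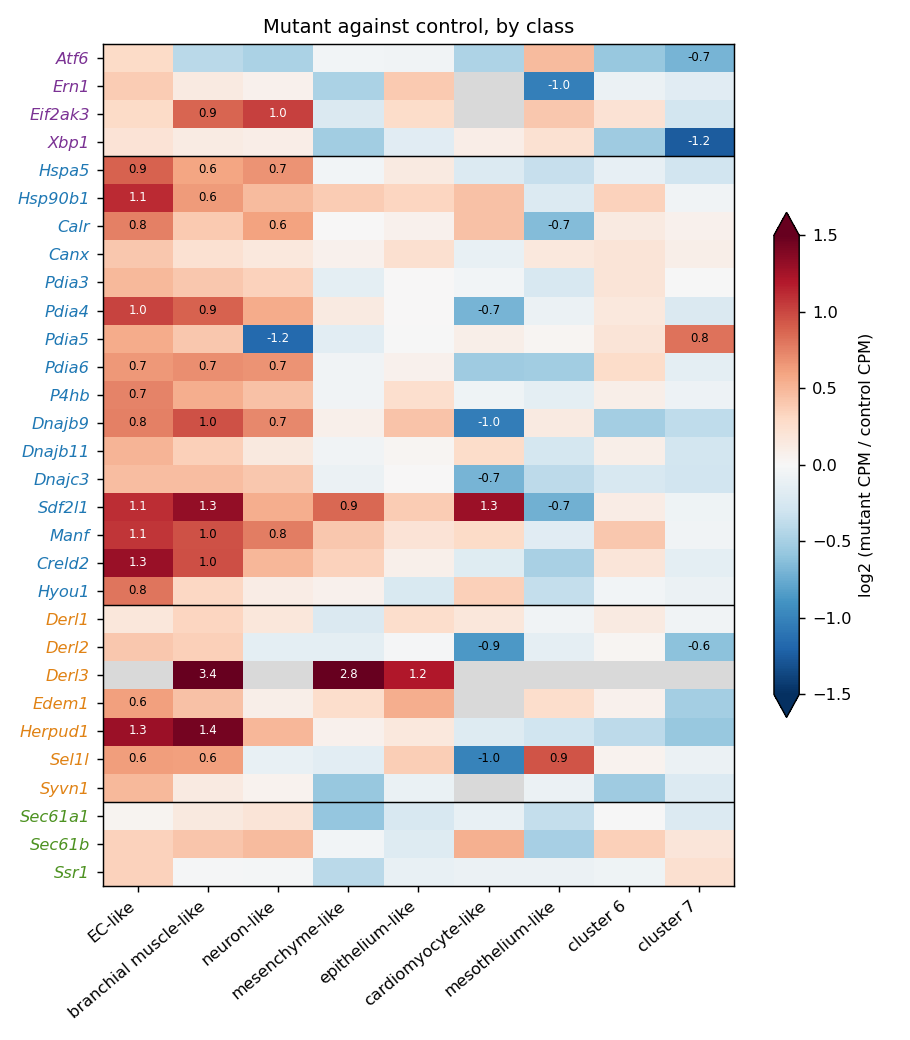
Log2 ratio of mutant over control CPM for the 30 genes (rows, in 4 blocks by role) in the 9 groups (columns), red for higher and blue for lower in the mutant library, grey where a gene had fewer than 20 UMIs or 0 in a library, with values printed past 1.5-fold. The chaperone block is red in the EC-like and branchial muscle-like columns, and the translocation block has no printed value.

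Across the 9 groups, Derl3 was past 1.5-fold higher in the 3 groups where both libraries held UMIs and their total reached 20. Within female-like cells it was at 0.19 (-1.44 to 1.60) in branchial muscle-like, -0.45 (-1.95 to 0.86) in epithelium-like and 1.97 (0.35 to 3.58) in mesenchyme-like cells. Sdf2l1 was past 1.5-fold higher in 4 groups and past 1.5-fold lower in 1. Canx, Pdia3, Dnajb11, Derl1 and the 3 translocation genes were within 1.5-fold in all 9 groups. Atf6 was above 0 in 2 of 9 groups and Hsp90b1 in 7 of 9.

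Genes around the 30 in the same pathway did not all follow them in EC-like cells. Of 24 other ER folding genes 2 were past 1.5-fold higher, with a median of 0.11. These were Ero1l, the oxidase that recharges the disulfide isomerases, from 34.1 to 294 CPM, 3.11 (2.85 to 3.38), and Rcn3 at 0.66. Ero1l is also counted in the list of hypoxia-induced genes below. Qsox1 (-0.18) and Dnajc1 (-0.15) were the lowest. Of 13 other regulators of the response none was past 1.5-fold, from Creb3l2 at 0.58 and Bax at 0.36 to Bak1 at -0.34 and Atf6b, the paralog of Atf6, at -0.39.

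Other degradation genes had 1 of 21 past 1.5-fold, Erlec1 at 0.83, with Selenos at 0.53, Fam8a1 at -0.36 and Man1b1 at -0.56. Other translocation and N-glycosylation genes had 1 of 26, Sec61g at 0.61, with Ssr2 at 0.49, Spcs1 at -0.04 and Srp14 at -0.10. For ER-to-Golgi transport 2 of 20 were past 1.5-fold, namely Kdelr3, a receptor that returns chaperones to the ER, from 23.8 to 48.3 CPM, 1.02 (0.69 to 1.37), and Sec24d at 0.65. Kdelr1 (0.04) and Copa (-0.07) were lowest. The medians of the 3 lists were 0.00, 0.21 and 0.34.

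Genes listed as targets of the Eif2ak3 arm had a higher median ratio than the members. Of the 12 listed genes 9 were past 1.5-fold higher in EC-like cells, against 14.4% of all genes, and the median was 1.11. Trib3 was at 3.19 (2.30 to 4.26) and Ddit4 at 2.93 (2.71 to 3.16). The activity of Eif2ak3 was not measured, and its part in these ratios was not tested. Slc7a11 (-0.11) and Nupr1 (-0.45) were lowest. Ddit3 (CHOP) went from 16.1 to 40.4 CPM, 1.33 (0.93 to 1.75), and the transcript of Atf4 from 101 to 215 CPM, 1.09 (0.93 to 1.26). Several genes of this list, Ddit4 and Vldlr among them, are also known targets of hypoxia. Atf3 is in this list and in that of the immediate early genes below.

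Lists of other stress responses moved beside the members, and their part in the members' ratios was not tested. All 12 hypoxia-induced genes were past 1.5-fold higher in EC-like cells (median 2.99), from Ldha at 1.56 and Ndrg1 at 1.98 to Adm at 4.61 and Slc2a3 at 5.72. All 12 were past it as well in branchial muscle-like, epithelium-like, mesenchyme-like and mesothelium-like cells (medians of 2.08, 2.57, 2.47 and 2.61). The members' medians there were 0.43, 0.07, -0.05 and -0.17. In neuron-like cells 8 were past it (median 1.00, members 0.34), and in cardiomyocyte-like cells 10 (1.38, members -0.09). In cluster 6 it was 11 (1.35, members 0.09) and in cluster 7 it was 8 (0.74, members -0.15). The Vegfa transcript was at 18.1 and 141 CPM in EC-like, 80.9 and 224 CPM in mesenchyme-like and 34.5 and 304 CPM in mesothelium-like cells.

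Of the listed heat shock genes 7 of 14 were past 1.5-fold higher in EC-like cells, against 14.4% of all genes. Hspa1b (4.91) and Hspa1a (4.54) were highest and Dnaja1 (-0.08) and Hsf1 (-0.23) lowest. Hspa1a was higher in all 9 groups, including those where the members were not, with 106 and 1113 CPM in cluster 7. Immediate early genes, which respond to cell isolation, had 2 of 12 higher and 3 lower in EC-like cells, from Ier3 at 1.29 and Atf3 at 1.13 to Fosb at -0.79 and Egr2 at -0.99. Secreted matrix genes, clients of the ER, had 1 of 22 higher (Fn1 at 0.82, followed by Fstl1 at 0.48) and 6 lower, with Col6a3 at -1.19 and Dcn at -2.06 lowest. In mesenchyme-like cells 16 of these 22 were lower and their sum was 17579.6 CPM in the control and 6513 CPM in the mutant library.

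Among single mutant EC-like cells the members varied with other ER folding genes more than with heat shock genes. In thinned mutant EC-like cells the members' sum had a rho of 0.50 with the other ER folding genes, 0.29 with the hypoxia-induced genes, 0.20 with the Eif2ak3 targets and 0.02 with the heat shock genes. Its rho with total UMIs was 0.13 and with the mitochondrial share -0.11. In control EC-like cells the values were 0.26, 0.08, 0.08 and 0.17 for the same lists. These are descriptions over cells of 1 library each, in counts that share depth. Ero1l is counted both in the other ER folding genes and in the hypoxia-induced genes.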

How the data were processed

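Gene by cell matrices of UMI counts were deposited, 1 library per genotype. Per the labels and methods, the authors used the 10x 5′ kit v2 and Cell Ranger 7.1.0 with the mm10 build. Counting by strand is not given in the sources used here. The deposited matrices held 4505 control and 5357 mutant cells, with 66935720 and 73915525 UMIs. Kept cells had over 2000 but under 9000 genes and under 10% mitochondrial UMIs.

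Integration by canonical correlation (Seurat 5.3.0, R 4.3.3) used 2000 variable genes and 30 components, without the listed genes. Resolution 0.3, the lowest to give at least 15 clusters, gave 16, and 0.8 gave 27. Clusters were named from marker lists where at least 3 markers were raised. A cluster stayed unnamed where another list with markers among the leading genes matched or exceeded the best list there. A further rule left out shallow clusters without a marker among the leading genes. The branchial muscle-like clusters were raised for 3, 8 and 4 of 12 markers. By marker counts of single cells, 1041 cells of that class kept its name, 203 were mural-like and 432 had no name. A Scrublet-type score (scanpy 1.11.5) called 0 control cells and 1 mutant cell, so the caller did not work and doublets were kept. The removal of the highest-scoring cells was an alternative.

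For each class, UMIs of a library were summed over cells and scaled to the sum of all genes. Level intervals are exact Poisson, ratio intervals conditional exact binomial and shares Clopper-Pearson. Genes needed 20 UMIs over both libraries of a class, and 0 entered list medians at a floor of 3 UMIs. Ratios and intervals were tested on simulated Poisson counts drawn from the EC-like sums, which hold counting error only. That run therefore does not show how the intervals hold for variation between cells or embryos. Gene coordinates are from GENCODE M21 (GRCm38). edgeR 4.0.16 was used for TMM scaling only. The members, lists, rules and tests were chosen with earlier results of these data known. All 30 members were named, in other classes the 2 highest and 2 lowest, and likewise for each other list in EC-like cells. Genes and clusters beyond that rule were chosen after their values were seen.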

Additional observations from a re-analysis of the deposited data

Results flagged for a closer look

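Some members pointed in opposite directions in different classes, each with a ratio past 1.5-fold on both sides. The difference between classes was not tested, since there was 1 library per genotype. Calr was at a log2 ratio of 0.75 in EC-like and -0.65 in mesothelium-like cells. Pdia4 was at 1.01 in EC-like and -0.70 in cardiomyocyte-like cells. Pdia5 was at 0.82 in cluster 7 and -1.17 in neuron-like cells. Dnajb9 was at 0.96 in branchial muscle-like and -1.04 in cardiomyocyte-like cells. Sdf2l1 was at 1.32 in branchial muscle-like and -0.72 in mesothelium-like cells. Sel1l was at 0.94 in mesothelium-like and -1.0 in cardiomyocyte-like cells. The cardiomyocyte-like values of Dnajb9 and Sel1l rest on 17 and 16 control UMIs. The mesothelium-like value of Sdf2l1 was -1.79 within female-like cells, on 8 mutant UMIs. It was -0.30 (-0.80 to 0.18) for male-like mutant against female-like control cells, and 0.00 at the highest of the other settings.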

How the results depend on the processing

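Counts of members past 1.5-fold higher and median log2 ratios were recomputed under 16 other settings, 2 of them (without the pituitary-gene cluster, and without barcodes found in both libraries) chosen after seeing the data. Clusters 6 and 7 have no value for resolution 0.8 or marker-count classes, the pituitary-gene setting bears on epithelium-like cells only, and the fold of 2 on counts only. No paired analysis was possible because each genotype had 1 library. The shares of all genes past 1.5-fold under these settings are not given here, so the counts have no background of their own. Resolution 0.8 and the removal of shared barcodes, of the highest-scoring doublets or of the pituitary-gene cluster left every count they gave within 1.5 times. TMM scaling raised the EC-like and neuron-like ratios of all genes by 0.11, the cardiomyocyte-like ones by 0.15, and lowered the mesothelium-like ones by 0.11. It gave 11 neuron-like (median 0.46), 2 epithelium-like and 3 cardiomyocyte-like members, and median-ratio scaling 2 epithelium-like.

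Female-like cells alone gave 9 EC-like, 0 mesenchyme-like (median -0.20), 5 branchial muscle-like (0.29), 0 epithelium-like (-0.20), 2 cardiomyocyte-like and 2 mesothelium-like members, and a neuron-like median of 0.24. In cluster 6 they gave 9 members (0.34, against 0.90 for all genes), on 3 mutant cells. Of these members Atf6, Ern1, Eif2ak3, Edem1 and Syvn1 had 0 mutant UMIs and entered at the floor of 3 UMIs. Setting the male-like mutant cells against the whole control class gave medians of 0.76 (EC-like), 0.02 (mesenchyme-like), 0.36 (epithelium-like, 7 members) and 0.23 (neuron-like), with 7 cardiomyocyte-like and 2 mesothelium-like members. The cardiomyocyte-like direction changed with the control cells. Against the 11 female-like control cells, 1 of 24 members was higher and 10 were lower, with a median of -0.43 (all genes -0.15). G1 cells gave medians of 0.77 (EC-like), 1.08 (branchial muscle-like, 26 members), 0.23 (cluster 6, 4 members) and -0.35 (cluster 7), with 3 cardiomyocyte-like and 2 mesothelium-like members.

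Thinning to 5000 UMIs gave 1 mesenchyme-like, 4 epithelium-like, 4 cardiomyocyte-like and 3 mesothelium-like members and turned the cluster 7 median to 0.00. Classes from marker counts gave 1 mesenchyme-like, 2 epithelium-like, 6 cardiomyocyte-like and 3 mesothelium-like members and a branchial muscle-like median of 0.56. A mean over cells gave 2 cardiomyocyte-like and 2 mesothelium-like members, and a mitochondrial limit of 5% 3 epithelium-like and 2 cardiomyocyte-like. A minimum of 100 UMIs left 1 mesenchyme-like and 0 epithelium-like members, and a minimum of 1 UMI gave 3 cardiomyocyte-like, 1 cluster 6 and 2 cluster 7 members. At a fold of 2 the counts were 7 (EC-like), 3 (branchial muscle-like), 1 (neuron-like), 1 (mesenchyme-like), 0 (mesothelium-like) and 0 (cluster 7). Of single genes named with a ratio past 1.5-fold, 3 reversed: Derl3 in epithelium-like female-like cells (-0.45), Sdf2l1 in thinned cardiomyocyte-like cells (-0.21) and Sel1l in cardiomyocyte-like cells at the 5% limit (0.14). Of those named within 1.5-fold, some also changed sign, among them Ern1 (-0.17, thinned), Sec61a1 (-0.22, thinned), Xbp1 (-0.03), Derl1 (-0.02) and Syvn1 (-0.02, all female-like) in EC-like cells. Edem1 in epithelium-like cells (-0.08, mean over cells) and Atf6 in mesothelium-like cells (-0.14, G1) did so too. The 1.72 of Atf6 in female-like cluster 6 cells was set by the floor of 3 UMIs, since the 3 mutant cells held 0 UMIs of it. The causes were not tested. Control EC-like UMIs of the sensors and degradation genes ranged from 0 to 401.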

Other observations

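Genes outside the 30 also held an ERSE or ERSE-II within the promoter window. Of 49 genes with a match, 34 in the matrices were no member, and 18 of these reached 20 UMIs in the EC-like class. Of the 18, 3 were at least 1.5-fold higher and 2 lower in the mutant library, against 14.4% and 14.3% of all genes, with a median log2 ratio of 0.15 against -0.06 for all genes. Alg12, a mannosyltransferase of N-glycan assembly, was at 0.57 (0.10 to 1.09), and Nucb1, a calcium-binding protein of the Golgi, went from 77.7 to 98.0 CPM, 0.34 (0.15 to 0.53). The higher ratios of Tdrd9 and 1700122E12Rik rested on 1 control UMI each. In branchial muscle-like cells 3 of 17 such genes were higher and 3 lower, against 16.6% and 10.1% of all genes, with a median of 0.06.

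Across the 9 groups of the control library the members' summed level had a Spearman's rho of 0.85 with the ER-to-Golgi transport genes, 0.55 with the secreted matrix genes and 0.07 with the heat shock genes. In the mutant library these were 0.97, 0.87 and -0.38. They are descriptions over 9 groups that share a library and its depth.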
